A study of Homo sapiens with 18 samples.

Results

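The NKG2D ligands are the cell-surface proteins by which a stressed or transformed cell is seen by the activating receptor NKG2D of natural killer (NK) cells and some T cells. The 6 genes described here, MICA, MICB, ULBP1, ULBP2, ULBP3 and RAET1G, were chosen by name, and their rows were found by Ensembl identifier among the 35044 genes of the count table. All 6 were present, and 6 of 6 passed the filter on low counts that left 18335 genes to test.

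RNA-seq was performed on 18 libraries from the breast cancer cell line HCC1937, 3 in each of 6 groups. HCC1937-EV carries an empty vector on a BRCA1-mutated background, although the labels give its genotype as WT, and HCC1937-OE-BRCA1 overexpresses wild-type BRCA1 beside the truncated protein of the parental line. Each line was sampled untreated (0 h) and after 12 h and 24 h of 10 µmol/L olaparib, an inhibitor of poly(ADP-ribose) polymerase (PARPi), and since the treatment field names olaparib for the 0 h libraries as well, the time in the title was taken to mark them as untreated. The same parental line underlies all 6 groups. The sources used here do not say whether HCC1937-OE-BRCA1 is 1 clone or a pool, nor whether replicates were separate cultures, so the p-values below measure only the spread between these libraries, which may be technical.

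NKG2D ligands resemble MHC class I molecules but present no peptide and need no β2-microglobulin. MICA and MICB span the membrane and lie in the MHC, whereas the ULBP and RAET1 proteins lack the membrane-proximal domain of MICA and MICB, are encoded at the other end of chromosome 6, and are in several cases held by a glycosylphosphatidylinositol (GPI) anchor. Healthy cells carry little of them, DNA damage signalling through ATM and ATR, heat shock and viral infection are known to raise them, and metalloproteases can shed them from tumour cells.

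The libraries held between 15081973 and 17571922 counts each. BRCA1 itself lay between 90.9 and 126 CPM (counts scaled to library size) in the 9 HCC1937-EV libraries and between 114 and 169 CPM in the 9 HCC1937-OE-BRCA1 libraries. BRCA1 was not called higher in HCC1937-OE-BRCA1 untreated (1.18-fold, adjusted p = 0.0654 by edgeR) or at 12 h (1.12-fold, adjusted p = 0.197) and was called at 24 h (1.71-fold, adjusted p = 3.17e-06), with the caution that these counts do not separate the endogenous from the introduced transcript. The breast epithelial markers went against the label of the HCC1937-EV libraries, where 3 or 4 of 8 reached a mean of 1 CPM in those groups against 8 of 8 in HCC1937-OE-BRCA1. EPCAM was at 0 in 8 of 9 HCC1937-EV libraries and lay between 252 and 352 CPM in HCC1937-OE-BRCA1. KRT5 stayed at or under 0.124 CPM in HCC1937-EV against at least 1060 CPM, and CDH1, the epithelial cadherin, at or under 1.2 CPM against at least 329 CPM, whereas KRT8 and KRT18 were high in both lines. Summed fibroblast markers (6 genes) ranged from 97.2 to 153 CPM in HCC1937-EV and from 6.96 to 12.4 CPM in HCC1937-OE-BRCA1, carried by COL1A1 and PDGFRB with COL1A2, COL3A1, LUM and DCN at or near 0 in both. The lines thus differed in far more than the vector, and what BRCA1 and what these other differences contribute to a contrast between the lines cannot be told apart. Comparisons of olaparib with untreated cells were made within a line.

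All 6 genes lie on chromosome 6 (GENCODE 29, GRCh38). MICA (31399784 to 31415315, plus strand) and MICB (31494881 to 31511124, plus strand) fall within 111.3 kb of the MHC. ULBP2 (149942000 to 149949235, plus), ULBP1 (149964007 to 149973710, plus), RAET1G (149916878 to 149923121, minus) and ULBP3 (150063150 to 150069095, minus) share a 185.7 kb cluster with RAET1E, the pseudogene RAET1K and RAET1L. The transcripts of this cluster share enough sequence with other genes, on either strand, to matter for counting. Of the 50-base stretches of ULBP2 transcripts, 32.2% also occur in another gene, mostly RAET1L. The shares were 18.3% for RAET1G, 12.4% for ULBP3, 6.85% for ULBP1, 2.94% for MICB and 2.64% for MICA. Over 100-base stretches the shares were 11.9% for ULBP2, 4.38% for RAET1G, 6.86% for ULBP3, 1.15% for ULBP1 and 0% for MICA and MICB. How reads mapping to several genes, or to both strands, were counted is not given in the sources used here, so the split of counts between ULBP2 and RAET1L carries that uncertainty. Exons of MICA overlap those of HCP5, a noncoding RNA on the same strand, over 62 bases, and exons of RAET1G overlap antisense RAET1E-AS1 over 138 bases.

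The stretches just before the RefSeq transcription starts show how the 6 genes resemble and differ from each other in the letters that transcription factors are known to read. They run from 250 bases before the start towards the gene and stop short of any exon of GENCODE 29 (build GRCh38.p14): MICA chr6:31403345-31403578, MICB chr6:31497895-31498085, ULBP1 chr6:149963693-149963942 and ULBP2 chr6:149941764-149941999 on the plus strand, ULBP3 chr6:150069122-150069371 and RAET1G chr6:149923122-149923371 on the minus strand. The MICA and MICB starts of RefSeq lie inside the longer GENCODE gene spans. Capitals mark matches, on either strand, to the heat shock element GAANNTTC, the GC box GGGCGG, the CCAAT box, TGACG, the core of the cyclic AMP response element, and the NF-kB site, some of which overlap.
MICA: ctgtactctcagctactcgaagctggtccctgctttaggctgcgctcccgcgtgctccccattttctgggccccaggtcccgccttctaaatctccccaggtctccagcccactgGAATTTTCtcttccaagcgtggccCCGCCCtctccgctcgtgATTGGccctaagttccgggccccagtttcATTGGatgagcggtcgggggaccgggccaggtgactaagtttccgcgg
MICB: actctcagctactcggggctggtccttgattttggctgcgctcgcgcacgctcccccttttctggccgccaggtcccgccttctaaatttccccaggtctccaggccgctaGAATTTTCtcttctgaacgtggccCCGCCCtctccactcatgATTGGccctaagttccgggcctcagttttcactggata
ULBP1: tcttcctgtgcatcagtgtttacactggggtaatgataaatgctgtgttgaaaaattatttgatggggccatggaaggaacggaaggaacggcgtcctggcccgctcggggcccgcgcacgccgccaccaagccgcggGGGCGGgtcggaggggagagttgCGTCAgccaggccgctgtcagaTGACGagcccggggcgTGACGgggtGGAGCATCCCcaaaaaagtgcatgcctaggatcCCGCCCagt
ULBP2: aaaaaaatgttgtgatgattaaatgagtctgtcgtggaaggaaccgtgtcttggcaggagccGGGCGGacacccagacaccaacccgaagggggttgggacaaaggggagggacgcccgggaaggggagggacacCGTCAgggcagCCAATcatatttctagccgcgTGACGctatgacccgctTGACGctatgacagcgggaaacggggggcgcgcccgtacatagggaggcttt
ULBP3: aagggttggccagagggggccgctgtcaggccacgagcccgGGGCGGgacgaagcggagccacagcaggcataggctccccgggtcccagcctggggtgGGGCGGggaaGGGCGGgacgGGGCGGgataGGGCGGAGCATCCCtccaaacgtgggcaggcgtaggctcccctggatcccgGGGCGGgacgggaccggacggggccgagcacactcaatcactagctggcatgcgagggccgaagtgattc
RAET1G: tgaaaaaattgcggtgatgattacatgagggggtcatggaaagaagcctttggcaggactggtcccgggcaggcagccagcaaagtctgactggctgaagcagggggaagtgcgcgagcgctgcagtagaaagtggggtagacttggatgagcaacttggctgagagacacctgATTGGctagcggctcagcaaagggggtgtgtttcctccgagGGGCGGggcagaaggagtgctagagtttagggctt
The heat shock element stood in MICA and MICB, starting 135 and 139 bases before the start, and in 5.8% of the 34943 windows of that length before annotated starts. The GC box was found in 6 of 6 genes against 42.5% of windows, with 6 copies before ULBP3. TGACG occurred 3 times each before ULBP1 and ULBP2 (21.2% of windows), the CCAAT box in 4 of 6 genes (32.0% of windows), and the NF-kB letters before ULBP1 and ULBP3 (22.6% of windows). The interferon-stimulated response element, the full TGACGTCA and TATAAA were in none of the 6 windows. MICA and MICB were 82.7% identical over the full 250 bases, ULBP2 and RAET1G 53.8%. A match is a description of letters only.

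MICA is the broadly expressed MIC ligand. The 9 HCC1937-EV libraries read 24.0, 36.3 and 29.5 CPM untreated, 27.5, 25.6 and 29.7 CPM at 12 h, and 26.3, 35.4 and 34.7 CPM at 24 h of olaparib. The 9 HCC1937-OE-BRCA1 libraries read 29.4, 30.9 and 37.9 CPM untreated, 37.4, 34.2 and 27.4 CPM at 12 h, and 32.0, 35.4 and 33.8 CPM at 24 h. The groups overlapped in every comparison. HCC1937-OE-BRCA1 differed from HCC1937-EV by 0.13 on the log2 scale in untreated cells (95% interval -0.19 to 0.45, adjusted p = 0.461), 0.26 at 12 h (-0.066 to 0.58, adjusted p = 0.143) and 0.07 at 24 h (-0.25 to 0.39, adjusted p = 0.693) by the quasi-likelihood test of edgeR, with p-values adjusted after Benjamini and Hochberg over all genes tested. None passed the threshold of 0.05, and the interval at 12 h leaves room for a log2 difference of up to 0.58. With olaparib, MICA differed from untreated by -0.12 at 12 h and 0.10 at 24 h in HCC1937-EV, and by 0.01 and 0.04 in HCC1937-OE-BRCA1 (log2, adjusted p between 0.705 and 1), none of them called.

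MICB, the second MIC ligand, separated the lines. In HCC1937-EV the libraries read 2.24, 0.247 and 0.432 CPM untreated, 2.5, 0.563 and 1.36 CPM at 12 h, and 0.295, 0.354 and 1.5 CPM at 24 h, from 4 to 39 counts each. In HCC1937-OE-BRCA1 they read 10.3, 9.06 and 10.1 CPM untreated, 11, 12.2 and 9.03 CPM at 12 h, and 13.3, 9.09 and 5.46 CPM at 24 h. Every HCC1937-OE-BRCA1 library lay above every HCC1937-EV library. MICB was higher in HCC1937-OE-BRCA1 by a log2 fold change of 3.33 ± 0.52 (SE) untreated (10.1-fold, adjusted p = 7.89e-06), 2.86 ± 0.49 at 12 h (7.28-fold, adjusted p = 2.5e-05) and 3.69 ± 0.55 at 24 h (12.9-fold, adjusted p = 3.63e-06). Its replicates were the most scattered of the 6 genes, with a biological coefficient of variation of 45.1% against 9.76% to 17.9% for the others. Olaparib gave no call for MICB in either line, at log2 values of 0.60 (12 h) and -0.44 (24 h) in HCC1937-EV and 0.13 and -0.08 in HCC1937-OE-BRCA1, and the 95% interval at 24 h in HCC1937-EV, -1.92 to 1.04, shows how little these few counts limit a change.

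ULBP1, a GPI-anchored ligand, was the gene that ran the other way. HCC1937-EV libraries read 6.46, 6.74 and 6.72 CPM untreated, 9.35, 8.19 and 5.77 CPM at 12 h, and 5.55, 2.65 and 4.91 CPM at 24 h. HCC1937-OE-BRCA1 libraries read 1.91, 2.40 and 3.02 CPM untreated, 2.51, 2.90 and 3.62 CPM at 12 h, and 2.52, 2.33 and 2.02 CPM at 24 h. At each time all HCC1937-OE-BRCA1 libraries lay below all HCC1937-EV libraries. The log2 fold change was -1.44 ± 0.25 untreated (2.71-fold lower, adjusted p = 3.06e-05), -1.37 ± 0.24 at 12 h (2.58-fold lower, adjusted p = 4.03e-05) and -0.93 ± 0.26 at 24 h (1.9-fold lower, adjusted p = 0.00307). Within HCC1937-EV, the 24 h libraries lay below all untreated ones at a log2 value of -0.60 ± 0.24 that did not pass the adjusted threshold (adjusted p = 0.0887), and it passed when only the compared groups were fitted (-0.61, adjusted p = 0.0388). Against 12 h the value was -0.83 ± 0.23 (adjusted p = 0.216). In HCC1937-OE-BRCA1 the values were 0.30 at 12 h and -0.09 at 24 h, with overlapping libraries.

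ULBP2, the GPI-anchored ligand also known as a shed serum protein in cancer, was higher in HCC1937-OE-BRCA1. HCC1937-EV libraries read 5.03, 4.70 and 5.18 CPM untreated, 6.98, 3.75 and 5.50 CPM at 12 h, and 3.66, 3.36 and 3.95 CPM at 24 h. HCC1937-OE-BRCA1 libraries read 13.8, 13.6 and 13.7 CPM untreated, 17.0, 14.6 and 15.1 CPM at 12 h, and 16.6, 16 and 20 CPM at 24 h. The lines did not overlap at any time. The log2 fold change between them was 1.46 ± 0.17 untreated (2.76-fold, adjusted p = 1.37e-07), 1.52 ± 0.17 at 12 h (2.88-fold, adjusted p = 6.72e-08) and 2.26 ± 0.18 at 24 h (4.78-fold, adjusted p = 2.17e-10). Within a line no olaparib comparison passed: at 24 h against untreated the log2 value was -0.44 ± 0.19 in HCC1937-EV (adjusted p = 0.113) and 0.35 ± 0.16 in HCC1937-OE-BRCA1 (adjusted p = 0.175), although in each line the 24 h libraries lay wholly to that side of the untreated ones.

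ULBP3, likewise GPI-anchored, held the only olaparib call among the 6 genes. HCC1937-EV libraries read 8.01, 5.69 and 6.91 CPM untreated, 5.83, 5 and 5.77 CPM at 12 h, and 5.20, 4.19 and 4.55 CPM at 24 h. HCC1937-OE-BRCA1 libraries read 13.1, 11.5 and 12.6 CPM untreated, 14.1, 13.5 and 15.8 CPM at 12 h, and 14.3, 13.1 and 13.9 CPM at 24 h. In HCC1937-EV all 24 h libraries lay below all untreated libraries, and in HCC1937-OE-BRCA1 all treated libraries lay above the untreated ones. ULBP3 fell by 0.56 ± 0.15 on the log2 scale at 24 h in HCC1937-EV (1.48-fold lower, 95% interval -0.88 to -0.245, adjusted p = 0.0212). That call was lost without untreated replicate 1 (-0.44, adjusted p = 0.123), without untreated replicate 3 (-0.58, adjusted p = 0.0589), without 24 h replicate 2 (-0.50, adjusted p = 0.101) and with no filter on low counts (-0.55, adjusted p = 0.058). In HCC1937-OE-BRCA1 ULBP3 gave 0.22 ± 0.14 at 12 h and 0.15 ± 0.14 at 24 h (adjusted p = 0.588 and 0.543). Between the lines it was higher in HCC1937-OE-BRCA1 by 0.85 ± 0.14 untreated (1.8-fold, adjusted p = 2.1e-05), 1.38 ± 0.15 at 12 h (2.61-fold, adjusted p = 3.1e-08) and 1.57 ± 0.15 at 24 h (2.96-fold, adjusted p = 5.13e-09).

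RAET1G, which encodes the ligand ULBP5, had no count in any of the 9 HCC1937-EV libraries. In HCC1937-OE-BRCA1 the libraries read 4.25, 4.07 and 4.41 CPM untreated, 4.02, 4.48 and 5.09 CPM at 12 h, and 4.98, 7.19 and 5.46 CPM at 24 h, a sum of 710 counts. The lines did not overlap. Against a floor of 3 counts over the HCC1937-EV group, RAET1G was at least 68.6-fold higher untreated, at least 69.9-fold higher at 12 h and at least 99-fold higher at 24 h, a bound that covers counting error only. RAET1G passed the filter on low counts through the HCC1937-OE-BRCA1 libraries alone, so that its call between the lines was fixed by that filter and is no further support. The response in HCC1937-EV could not be tested. In HCC1937-OE-BRCA1 the log2 value was 0.09 ± 0.22 at 12 h and 0.47 ± 0.22 at 24 h (adjusted p = 0.208), with all 24 h libraries above all untreated ones but no call.

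**Figure D1:**
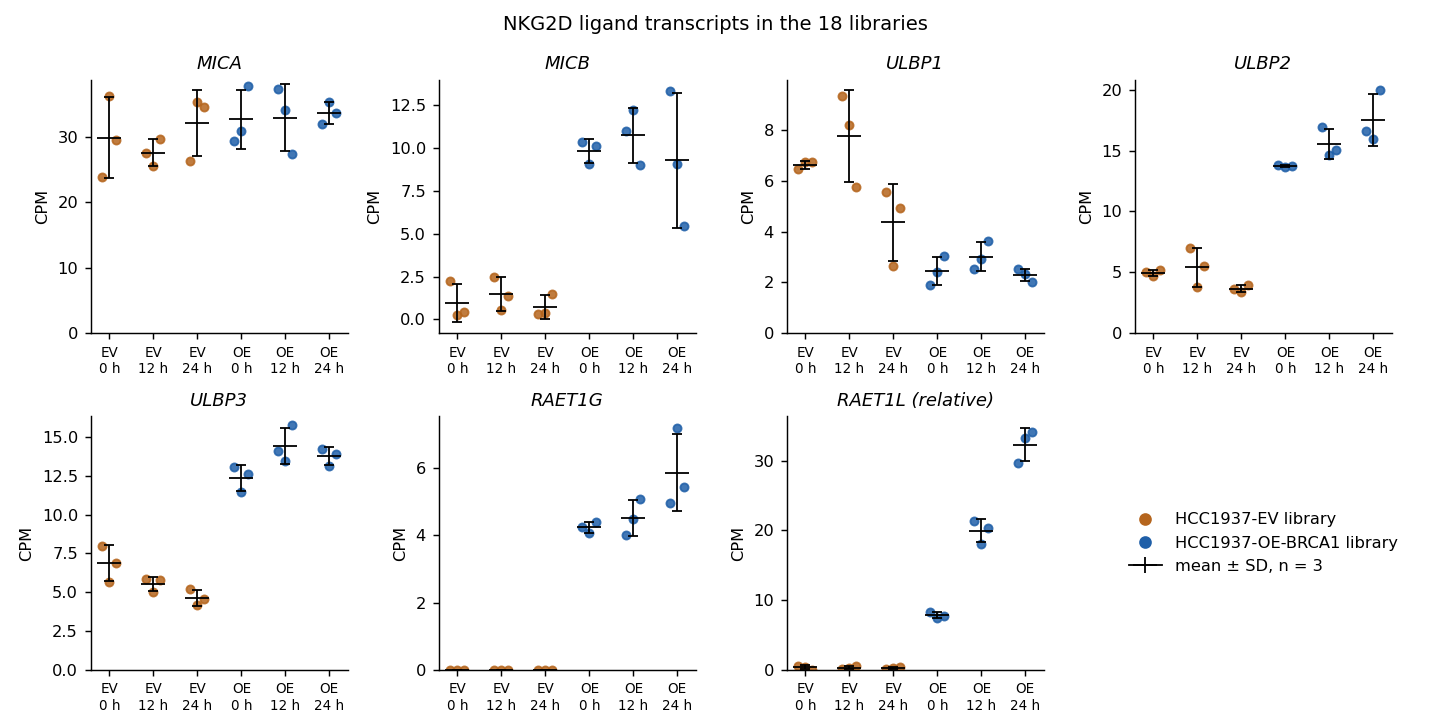
Normalised read counts (CPM) of the 6 genes and the relative RAET1L in each of the 18 libraries, by line and hours of olaparib; points are libraries, bars mean ± SD of 3. The MICA libraries of the lines overlap (24.0 to 36.3 and 27.4 to 37.9 CPM), RAET1G is at 0 in the 9 HCC1937-EV libraries, and RAET1L stands at 7.84, 19.9 and 32.3 CPM on average along the olaparib times of HCC1937-OE-BRCA1.

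Set side by side, edgeR called 5 of the 6 genes between the lines at every time, 4 higher in HCC1937-OE-BRCA1 and ULBP1 lower, with RAET1G among the 4 through the group where it was high. Of all genes tested, 72.7% were called between the lines untreated, 72.9% at 12 h and 73.9% at 24 h, so 5 of 6 lies near the background and is not a result about these genes. The median log2 value over the 6 was 1.16, 1.45 and 1.91 at 0 h, 12 h and 24 h, beside medians over all genes of 0.11, 0.08 and 0.12. RAET1G, the highest of the 6, lifts these medians although it entered the test through HCC1937-OE-BRCA1 alone. Without RAET1G the middle value was that of ULBP3, at 0.85, 1.38 and 1.57. The calls for MICB, ULBP1, ULBP2 and ULBP3 were kept when each library of the compared groups was left out in turn. Only the filter asking for 10 counts in every library changed the number, to 3, because it removed MICB and RAET1G from the test.

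**Figure D2:**
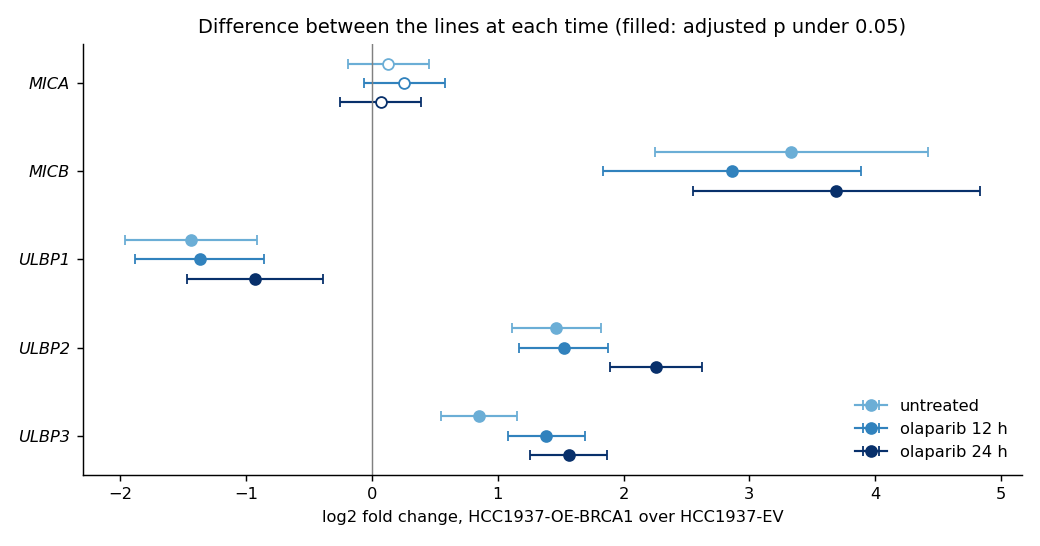
Log2 fold change of HCC1937-OE-BRCA1 over HCC1937-EV with its 95% interval, for 5 genes at 0 h, 12 h and 24 h of olaparib; filled points have an adjusted p under 0.05. MICB, ULBP2 and ULBP3 lie right of 0 and ULBP1 left of it at each time, and the MICA intervals span 0; RAET1G, without a count in HCC1937-EV, has no point.

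Within a line, the olaparib counts were read against the share of all genes called. In HCC1937-EV, 0 of 5 testable genes were called at 12 h against untreated (background 0.0436% of genes), 1 of 5 at 24 h (background 13.7%), and 0 of 5 between 24 h and 12 h (background 0.18%). In HCC1937-OE-BRCA1, 0 of 6 were called at 12 h (background 2.31%), at 24 h (background 8.26%) or between them (background 1.65%). At an unadjusted p under 0.05 the counts were 0, 3 and 2 of 5 in HCC1937-EV and 0, 2 and 0 of 6 in HCC1937-OE-BRCA1 in the same order, and DESeq2 called the same numbers as edgeR in these 6 comparisons. These are counts of 5 or 6 genes, and no result about the ligands as a group is read from them. The 12 h and 24 h comparisons of a line share its untreated libraries. In bulk RNA a lower level in every cell and fewer expressing cells cannot be told apart.

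The test of whether the lines responded differently subtracts the log2 response of HCC1937-EV from that of HCC1937-OE-BRCA1. At 12 h it called 0 of 5 genes with edgeR and DESeq2, 1 at an unadjusted p under 0.05, beside 0.518% of all genes. At 24 h it called 2 of 5, ULBP2 and ULBP3, beside 19.4% of all genes. ULBP2 responded more upward in HCC1937-OE-BRCA1 by 0.79 ± 0.24 (95% interval 0.29 to 1.30, adjusted p = 0.0271) and ULBP3 by 0.72 ± 0.21 (0.29 to 1.15, adjusted p = 0.0194). Both values sum a downward value in HCC1937-EV and an upward value in HCC1937-OE-BRCA1 of which only the fall of ULBP3 was called by itself. The ULBP2 call was lost on leaving out 6 of the 12 libraries in turn (adjusted p from 0.0552 to 0.0825) and the ULBP3 call on leaving out 3 of 12, namely untreated replicate 1 and 24 h replicate 2 of HCC1937-EV (adjusted p = 0.0693 and 0.0589) and untreated replicate 2 of HCC1937-OE-BRCA1 (adjusted p = 0.0549). For ULBP2 the libraries were untreated replicates 1 and 3 and 24 h replicates 1 and 2 of HCC1937-EV, and untreated replicate 2 and 24 h replicate 3 of HCC1937-OE-BRCA1. MICA (-0.06), MICB (0.36) and ULBP1 (0.51) gave no call at 24 h, with 95% intervals of -0.51 to 0.39, -1.34 to 2.05 and -0.25 to 1.27.

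**Figure D3:**
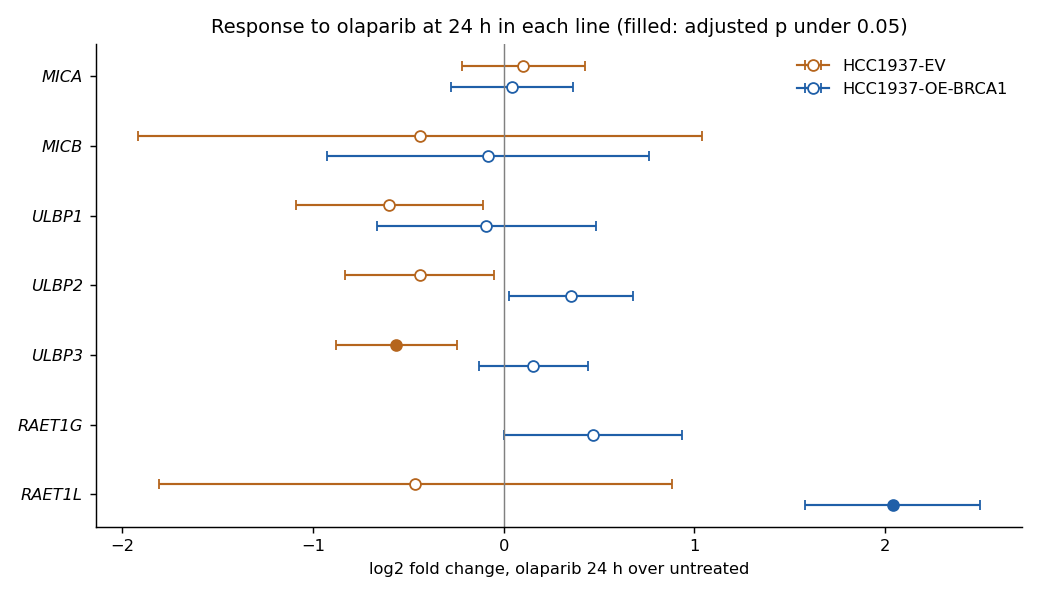
Log2 fold change of 24 h olaparib over untreated cells with its 95% interval, in each line; filled points have an adjusted p under 0.05. Only ULBP3 in HCC1937-EV (-0.56) and the relative RAET1L in HCC1937-OE-BRCA1 (2.04) are filled, and RAET1G has no HCC1937-EV point.

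Levels of different genes can be compared once scaled to length, as CPM per kb of exon. In untreated HCC1937-EV the order was MICA at 12.6 ± 2.58 CPM per kb (SD, n = 3), ULBP3 at 6.95 ± 1.18, ULBP2 at 3.68 ± 0.183, ULBP1 at 2.11 ± 0.0496, MICB at 0.347 ± 0.393 and RAET1G at 0, and no neighbours overlapped. The same order held at 12 h and 24 h of olaparib, but at 12 h the libraries of ULBP3 and ULBP2, and of ULBP2 and ULBP1, overlapped. In untreated HCC1937-OE-BRCA1 MICA (13.7 ± 1.91) and ULBP3 (12.5 ± 0.831) overlapped, followed by ULBP2 (10.2 ± 0.0667), MICB (3.52 ± 0.247), RAET1G (2.85 ± 0.115) and ULBP1 (0.778 ± 0.178). Scaled to the coding transcript instead, MICB and RAET1G stood closer, at 4.025 and 3.831 CPM per kb. ULBP1 thus ranked above MICB and RAET1G in HCC1937-EV and below both in HCC1937-OE-BRCA1. At 12 h and 24 h ULBP3, MICA and ULBP2 overlapped as neighbours at the top of HCC1937-OE-BRCA1, and MICB and RAET1G overlapped below them.

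Summed over the 6 genes, the level was 25.6 ± 0.973 CPM per kb untreated, 24.2 ± 2.58 at 12 h and 22.5 ± 1.65 at 24 h in HCC1937-EV. In HCC1937-OE-BRCA1 the sum was 43.6 ± 2.55, 47.8 ± 1.87 and 49.1 ± 0.258 CPM per kb. MICA made up 48.7% ± 8.20 of the untreated sum in HCC1937-EV and 31.4% ± 2.79 in HCC1937-OE-BRCA1. The share of ULBP2 was 14.4% ± 1.16 against 23.4% ± 1.28, and that of ULBP1 8.25% ± 0.184 against 1.78% ± 0.335. ULBP3 held a like share in both, 27.3% ± 5.6 and 28.8% ± 1.77.

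**Figure D4:**
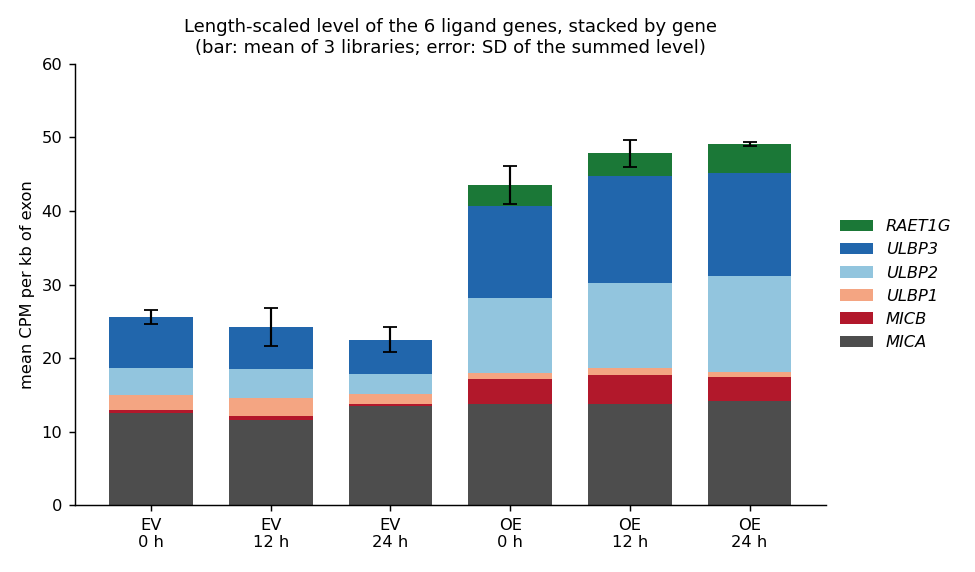
Mean length-scaled level (CPM per kb of exon) of the 6 genes stacked by gene for each group of 3 libraries; the error bar is the SD of the sum. The stacks total 22.5 to 25.6 in HCC1937-EV and 43.6 to 49.1 in HCC1937-OE-BRCA1 with MICA of similar height in all 6.

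The genes of the RAET1 cluster that are no members show where the members stood among their neighbours. RAET1L, which encodes the ligand ULBP6, held 42 counts over the 9 HCC1937-EV libraries. In HCC1937-OE-BRCA1 its libraries read 8.31, 7.45 and 7.75 CPM untreated, 21.4, 18.1 and 20.3 CPM at 12 h, and 29.7, 33.2 and 34.0 CPM at 24 h. The 3 times did not overlap. RAET1L rose by 1.35 ± 0.22 (log2) at 12 h (2.54-fold, adjusted p = 0.000947) and 2.04 ± 0.22 at 24 h (4.12-fold, adjusted p = 4.22e-06), both kept without each library in turn. Between 24 h and 12 h the value was 0.70 ± 0.21 and missed the threshold (adjusted p = 0.0994), while 4 of 7 other settings called it: DESeq2 (adjusted p = 0.000139), the compared groups alone (0.000499), no filter on low counts (0.00902) and the correction for GC content and length (0.0299). ULBP2, which shares 29.4% of its 50-base stretches with RAET1L, moved by 0.35 at 24 h over the same libraries without a call. RAET1E, which encodes ULBP4, was higher in HCC1937-OE-BRCA1 at each time by 0.65, 0.69 and 0.68 (adjusted p = 0.0493, 0.0363 and 0.0328), calls that were lost on leaving out 4, 3 and 4 of 6 libraries, and the pseudogene RAET1K was lower untreated by -1.30 (adjusted p = 0.0131), lost on leaving out 1 of 6. Of the 4 relatives tested, 1 was called with olaparib at 12 h and at 24 h in HCC1937-OE-BRCA1, and 0 of 3 in each HCC1937-EV comparison by edgeR, by DESeq2 or at an unadjusted p under 0.05.

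**Figure D5:**
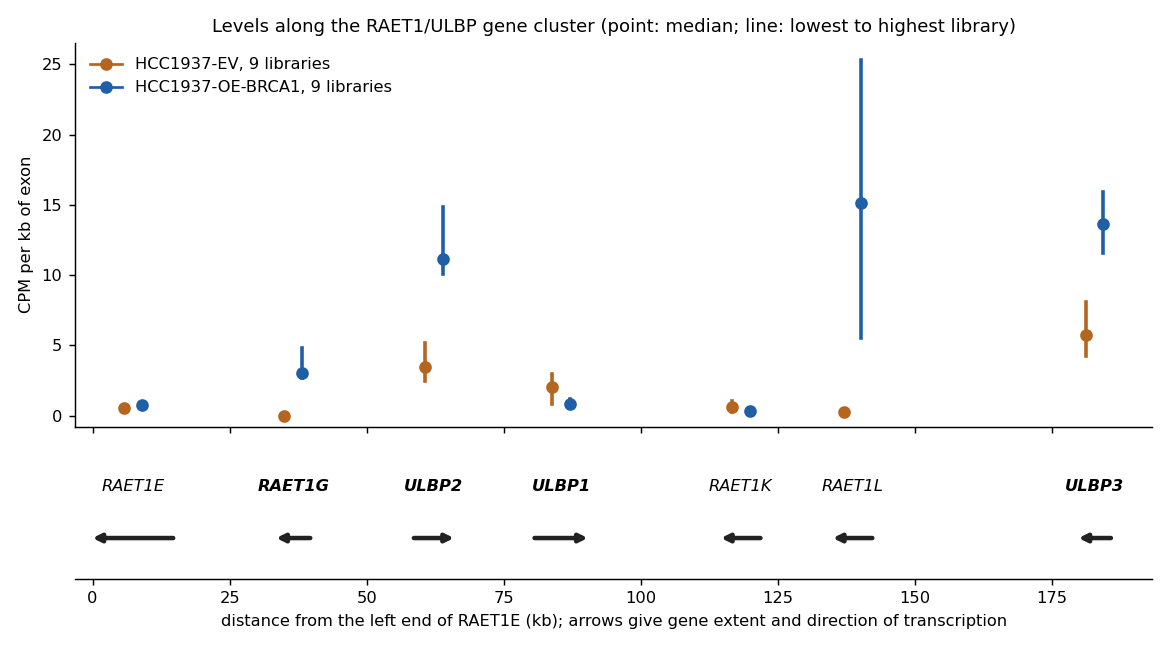
Length-scaled level (CPM per kb of exon) of the 7 genes of the RAET1/ULBP cluster against distance from the left end of RAET1E (kb), with arrows for gene extent and direction; points are medians and lines the range of the 9 libraries of a line. RAET1G and RAET1L are at or near 0 in HCC1937-EV, ULBP2 and ULBP3 lie higher in HCC1937-OE-BRCA1, ULBP1 and RAET1K lower, and members are in bold.

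Genes that act on the ligands were described from lists, whose shares stand beside the backgrounds given above. Of 9 tested genes known to shed NKG2D ligands or to control shedding, 8 differed between the untreated lines, 4 higher and 4 lower in HCC1937-OE-BRCA1. MMP14, a membrane metalloprotease, lay between 54.5 and 81.0 CPM in HCC1937-OE-BRCA1 and at or under 1.29 CPM in HCC1937-EV. ADAM10, a sheddase of MICA, MICB and ULBP2, was higher by 1.05 (log2, adjusted p = 1.49e-08) and TIMP3, the metalloprotease inhibitor, by 3.12 (adjusted p = 2.93e-18) in HCC1937-OE-BRCA1. ADAM17 was at a similar level in both, 36.8 to 51.8 and 38.8 to 52.6 CPM. With olaparib for 24 h, 1 of the 9 rose and 3 fell in HCC1937-EV (edgeR), and 1 rose in HCC1937-OE-BRCA1, where DESeq2 called 0. In HCC1937-EV TIMP3 was the gene that rose and ADAM9, ADAM10 and MMP9 those that fell, calls that were kept on leaving out 0, 2, 3 and 1 of the 6 libraries in turn. The gene called in HCC1937-OE-BRCA1 was MMP9, a gelatinase, at 3.30 ± 0.53 (log2, adjusted p = 0.000381). MMP9 was near the floor in both lines, at 0.0616 to 1.78 CPM in HCC1937-OE-BRCA1 and 0.118 to 0.688 CPM in HCC1937-EV. These are 110 and 54 counts over the 9 libraries of each line, so its changes rest on few reads. Of 26 tested genes of GPI anchor synthesis and attachment, which the GPI-anchored ligands need to reach the surface, 9 were higher and 8 lower in untreated HCC1937-OE-BRCA1. PIGA, which starts the anchor, was lower by -2.34 (adjusted p = 6.47e-11), PIGK, of the transamidase, by -2.14 (adjusted p = 2.57e-10), and GPAA1, of the same complex, higher by 1.69 (adjusted p = 4.6e-10).

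Among 15 genes of the DNA damage kinases and their partners, 3 were higher and 9 lower in untreated HCC1937-OE-BRCA1, with a median log2 value of -0.59 beside 0.11 over all genes. With olaparib, 0 were called at 12 h in either line by edgeR or DESeq2, with 2 in HCC1937-EV and 1 in HCC1937-OE-BRCA1 at an unadjusted p under 0.05. At 24 h, CLSPN and TOPBP1 fell in HCC1937-EV (-0.46 and -0.38, adjusted p = 0.0261 and 0.0301), kept on leaving out 1 and 2 of 6 libraries, and 1 gene rose in HCC1937-OE-BRCA1, where CLSPN, the adaptor of the ATR pathway, went from 100.2 ± 21.2 to 155 ± 13.7 CPM (log2 0.63, adjusted p = 0.00371). CLSPN responded more upward in HCC1937-OE-BRCA1 than in HCC1937-EV by 1.09 (adjusted p = 0.000913). Of 15 transcription factors reported at NKG2D ligand promoters, 7 were higher and 4 lower in untreated HCC1937-OE-BRCA1, with FOSL1 (3.47, adjusted p = 2.08e-15), JUN (2.18, adjusted p = 1.06e-12) and STAT3 (1.23, adjusted p = 9.21e-12) higher and MYC lower (-2.40, adjusted p = 6.9e-16). At 24 h in HCC1937-EV JUN rose by 0.55 (adjusted p = 0.00897), while SP1, which binds GC boxes, and E2F3 fell (-0.47 and -0.29, adjusted p = 0.0147 and 0.0498), calls kept on leaving out 6, 3 and 1 of the 6 libraries. In HCC1937-OE-BRCA1 XBP1 and MYC rose at 12 h (0.45 and 0.32, adjusted p = 0.00544 and 0.0426), kept on leaving out 5 and 2 of 6 libraries, and XBP1 at 24 h (0.32, adjusted p = 0.031), kept in 2 of 6. The difference of responses at 24 h was 0.73 for SP1 (adjusted p = 0.00581), 0.49 for E2F3 (adjusted p = 0.0175) and -0.72 for JUN (adjusted p = 0.00629).

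Heat shock genes were counted because of the element before MICA and MICB. Of 11 tested, 4 rose and 3 fell at 24 h in HCC1937-EV, among them DNAJB1, a co-chaperone (143.6 ± 1.76 to 214.7 ± 6.37 CPM, log2 0.58, adjusted p = 0.000498), which rose, and HSP90AA1 (3475 ± 164 to 2280 ± 136 CPM, log2 -0.61, adjusted p = 0.00251), which fell. In HCC1937-OE-BRCA1 at 24 h 3 fell and none rose. MICA and MICB were called in neither line over the same libraries, and a link to the heat shock genes was not tested. For MICB in HCC1937-EV at 24 h the 95% interval, -1.92 to 1.04 (log2), is too wide to limit a change. Of 11 enzymes of repressive chromatin, 1 rose and 1 fell at 24 h in HCC1937-EV, and 0 were called at 24 h against untreated in HCC1937-OE-BRCA1 by edgeR, with 3 at an unadjusted p under 0.05 and 2 by DESeq2.

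The ligands of other NK receptors set the 6 genes in their context. Of 7 tested ligands of other activating receptors, 2 were higher and 1 lower in untreated HCC1937-OE-BRCA1: NECTIN2, a ligand of DNAM-1 (0.98, adjusted p = 4.08e-08), ICAM1, the ligand of LFA-1 (0.81, adjusted p = 3.55e-07), and NCR3LG1, the NKp30 ligand B7-H6 (-1.49, adjusted p = 6.36e-06). NECTIN2 rose at 24 h in HCC1937-EV from 57.5 ± 2.26 to 84.6 ± 7.77 CPM (adjusted p = 0.00387). Of 9 tested ligands of inhibitory receptors, 8 were higher and 0 lower in untreated HCC1937-OE-BRCA1 by edgeR, and DESeq2 called 8 as well. HLA-B was at 0 in 6 of 9 HCC1937-EV libraries, and HLA-C did not exceed 0.375 CPM there. HLA-B and HLA-C thus passed the filter on low counts through HCC1937-OE-BRCA1 alone, and their calls between the lines are no further support. In HCC1937-OE-BRCA1 the medians of HLA-B and HLA-C were 1350 and 699 CPM. HLA-E, the ligand of NKG2A, was at 17.8 to 30.1 CPM in HCC1937-EV and 14.2 to 51.5 CPM in HCC1937-OE-BRCA1. CEACAM1, an inhibitory ligand, rose in HCC1937-OE-BRCA1 from 22.3 ± 2.39 to 66.6 ± 3.42 CPM at 12 h (adjusted p = 4.77e-06) and 50.1 ± 5.22 CPM at 24 h (adjusted p = 0.000123). CDH1, which KLRG1 binds, fell there at 24 h against untreated (-0.35, adjusted p = 0.0493) and against 12 h (-0.47, adjusted p = 0.0292). These calls were kept on leaving out 1 and 0 of 6 libraries. The CDH1 difference of responses at 24 h was -1.09 (adjusted p = 0.0158). That value also rests on HCC1937-EV, where CDH1 had 115 counts over the 9 libraries, at 0.313 to 1.2 CPM.

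The cultures held little sign of the cells that carry the receptor. Summed over the 7 NK and cytotoxic T cell markers present in the table, the level never exceeded 2.64 CPM, and KLRK1, which encodes NKG2D, had at most 9 counts in a library. Leukocyte markers (5 genes present) summed to 1.22 to 2.59 CPM in HCC1937-EV and 38.7 to 91.8 CPM in HCC1937-OE-BRCA1, most of it CD14 (31.5 to 85.8 CPM). ITGAM, an integrin of myeloid cells, averaged 5.69, 6.03 and 4.07 CPM at 0 h, 12 h and 24 h in HCC1937-OE-BRCA1. It was near the floor in HCC1937-EV and passed the filter on low counts through HCC1937-OE-BRCA1 alone. Its calls between the lines were fixed by that filter and are no further support. PTPRC, which marks leukocytes as a whole, stayed at or under 2.22 CPM. Endothelial markers (3 genes) summed to 1.11 to 2.89 CPM and 17.2 to 27.0 CPM. The part of these and of the epithelial and fibroblast markers in the line differences of the ligands was not tested.

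After the mean of each line was taken off, the genes whose log2 CPM over the 18 libraries was most like a ligand gene were, among 12615 searched, TWNK for MICA (r = 0.772), ZNF850 for MICB (0.739), ATAD1 for ULBP1 (0.803), STT3A for ULBP2 (0.832), IL17RB for ULBP3 (0.817) and DGKG for RAET1G (0.905). RAET1G was at 0 throughout HCC1937-EV, so its r rests on the 9 HCC1937-OE-BRCA1 libraries. Among the 6 genes themselves the highest r was 0.607, for ULBP2 and ULBP3, and the lowest -0.481, for MICA and ULBP3. These are descriptions over libraries that share lines and treatment times.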

How the data were processed

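Total RNA was sequenced in 18 libraries (NEBNext Ultra II kit). The authors deposited raw read counts per Ensembl gene, as 1 joint table and 18 single tables that were identical to it; per the labels HISAT2, featureCounts and DESeq2 were used on GRCh38 (hg38), with versions, annotation release, strand setting and treatment of multi-mapped reads not given in the sources used here. Groups came from the titles. Symbols were matched for 34945 of 35044 identifiers (99.72%), and exons were taken from GENCODE 29. CPM values were computed with TMM library sizes. Each comparison was a contrast in 1 edgeR 4.0.16 quasi-likelihood fit (R 4.3.3) of all 18 libraries with a mean per group, after filterByExpr, with p-values adjusted after Benjamini and Hochberg over 18335 genes and a threshold of 0.05, with no minimum fold. The fit was also run on simulated data, with the same spread for every gene and few changed genes. That setting covers neither the scatter of MICB nor the many differences between the lines, and its outcome is not reported here. With 3 libraries a group, an exact two-sided permutation test cannot go below 0.10. Biological coefficient of variation was 12.9%. The replicate numbers shared by the titles showed no clear pairing of the libraries (deviations of same-numbered libraries correlated at -0.353 to 0.232). Alternatives were DESeq2 1.42.0, other library sizes, other filters, a correction for GC content and length, a replicate block, compared groups alone, an added fold of 0.5 (log2), coding transcript length and each library left out. In each comparison the 6 members were named, and of each list at most 4 called genes with the lowest adjusted p. The members and the 14 gene lists were chosen with earlier results of these data known. Motif shares and upstream sequences came from RefSeq. MICD, CD48, HLA-G and some marker genes were not analysed here, and 1 gene of a list is not reported here. Intervals and floors cover counting error or library spread only.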

Additional observations from a re-analysis of the deposited data

Results flagged for a closer look

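In 3 genes the response to 24 h of olaparib differed between the lines by the test of the difference itself (HCC1937-OE-BRCA1 minus HCC1937-EV, log2): ULBP2 at 0.7944 (adjusted p = 0.0271), ULBP3 at 0.7184 (adjusted p = 0.0194) and the relative RAET1L at 2.505 (adjusted p = 0.0176). The RAET1L value rests on 42 HCC1937-EV counts in all, and its call was lost without untreated replicate 1 (1.91, adjusted p = 0.158), untreated replicate 2 (2.27, adjusted p = 0.0738) or 24 h replicate 1 (2.05, adjusted p = 0.0511) of HCC1937-EV. ULBP2 and RAET1L share sequence, and whether reads passed between them was not tested.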

How the results depend on the processing

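The line calls of MICB, ULBP1, ULBP2 and ULBP3 kept their direction and side of the threshold wherever tested. The RAET1G call was fixed by its lack of counts in HCC1937-EV, so its staying is no support. With at least 10 counts in every library MICB and RAET1G left the test and 3 members were called at each time. In HCC1937-EV at 24 h against untreated, 0 members were called with no filter on low counts and 2 with the compared groups alone. Leaving out single libraries gave 0 to 1 there and 0 to 2 for the difference of responses at 24 h, which gave 0 with no filter (ULBP2 0.74, adjusted p = 0.0609, and ULBP3 0.66, adjusted p = 0.101). The cause was not tested. Single-gene values of uncalled results changed sign near 0, as log2 values. For MICA they were -0.05103 (GC content and length) and -0.04947 (the same with the replicate block) in HCC1937-EV at 24 h; -0.001451 (no filter), -0.009243 (GC content and length), -0.00837 (with the block) and -0.003475 (compared groups alone) in HCC1937-OE-BRCA1 at 12 h; -0.004093 and -0.002642 (no filter) at 24 h against untreated and against 12 h; and 0.1497 and, with the block, 0.1487 for the difference of responses at 24 h. Scaled to coding transcript length, 5 of the levels per kb moved by more than their SD, all in HCC1937-OE-BRCA1: MICA at 24 h (14.93), MICB untreated (4.025) and RAET1G at the 3 times (3.831, 4.09 and 5.305). The uncalled log2 value of ULBP3 in HCC1937-OE-BRCA1 between 24 h and 12 h also changed sign. It was 0.06054 with the correction for GC content and length and 0.05989 with the block added.

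With single libraries left out, MICA ranged from -0.2568 to 0.04486 (HCC1937-EV, 12 h), -0.03641 to 0.2653 (HCC1937-EV, 24 h), -0.08571 to 0.1302 (HCC1937-OE-BRCA1, 12 h), -0.03051 to 0.162 (24 h), -0.07881 to 0.1293 (24 h against 12 h), -0.00868 to 0.2931 and -0.05924 to 0.148 (between lines, untreated and 24 h), and -0.03895 to 0.2625 and -0.2228 to 0.0789 (difference of responses, 12 h and 24 h). MICB ranged from -0.03431 to 2.085 and -1.561 to 1.05 (HCC1937-EV, 12 h and 24 h), -0.4362 to 0.1872 and -0.5596 to 0.06496 (HCC1937-OE-BRCA1, 24 h against untreated and 12 h), and -1.963 to 0.1567 and -1.135 to 1.477 (difference of responses). ULBP1 ranged from -0.2435 to 0.08762 (HCC1937-OE-BRCA1, 24 h) and -0.09746 to 0.2519 (difference of responses, 12 h), ULBP2 from -0.1102 to 0.3246 (HCC1937-EV, 12 h) and -0.1464 to 0.2872 (difference of responses, 12 h), ULBP3 from -0.1103 to 0.004569 (HCC1937-OE-BRCA1, 24 h against 12 h) and RAET1G from -0.003144 to 0.1742 (HCC1937-OE-BRCA1, 12 h).

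The replicate numbers share no stated origin. Of 27 same-numbered pairs, 8 correlated over 0.1 and 9 best with their own number. No clear pairing was seen, but 3 libraries a group are too few to exclude one. With the replicate block the members called stayed at 1 of 5 in HCC1937-EV at 24 h, at 0 in the other olaparib comparisons within a line, at 5 of 6 between the lines and at 2 of 5 for the difference of responses at 24 h. The counts behind MICB and RAET1L in HCC1937-EV are too few to limit a response to olaparib.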
